A study of Homo sapiens with 13 samples.

Results

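The secretory and mucosal epithelial loci described here are 6 windows of the genome that hold 9 genes: TFF1, TFF2 and TFF3 on chromosome 21, AGR2 and AGR3 on chromosome 7, SPDEF on chromosome 6, ST6GALNAC1 on chromosome 17, MUC16 on chromosome 19 and MUC1 on chromosome 1. A FOXA1 peak belonged to a locus when its centre lay inside the window, a rule of position that used no measured value. The windows themselves were chosen with earlier results of these data known. The windows together cover 1.42 Mb of hg19 and held 63 of 68107 peaks, which were 53 of the 54855 Ishikawa peaks and 10 of the 13252 Hec1A peaks. Ishikawa and Hec1A are established human endometrial cancer cell lines. In each line, FOXA1-bound DNA was recovered with the rabbit antibody ab23738 and sequenced (ChIP-seq), in 6 libraries of Ishikawa and 3 of Hec1A, with 2 input libraries per line. The labels give no treatment, and the authors pooled the libraries of a line before they located peaks. The pools held 343739762 Ishikawa tags and 143055568 Hec1A tags, where a tag is 1 mapped sequence end. Each line has 1 list and no replicate error, so the comparisons below are descriptions of these lists without a test between lines.

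FOXA1 is a pioneer transcription factor that binds compacted chromatin and makes it accessible to other factors, among them the oestrogen and androgen receptors. The trefoil factors TFF1, TFF2 and TFF3 are small secreted peptides that protect mucous surfaces, and TFF1 is a classical oestrogen-induced gene of breast cancer cells. AGR2 and AGR3 are protein disulphide isomerases of the endoplasmic reticulum, and AGR2 assists the folding of secreted mucins. SPDEF is an ETS-family transcription factor that drives the differentiation of mucus-producing cells. ST6GALNAC1 is the sialyltransferase that builds the sialyl-Tn antigen on mucins. MUC16, which carries the CA125 antigen, and MUC1 are membrane-bound mucins of gland epithelium, including that of the endometrium.

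In the RefSeq gene order TFF3, TFF2 and TFF1 follow each other between ABCG1 and TMPRSS3, and AGR2 and AGR3 lie side by side between TSPAN13 and AHR. SPDEF lies between PACSIN1 and ILRUN, MUC16 between MBD3L1 and OR1M1, and MUC1 between TRIM46 and THBS3. MXRA7 follows ST6GALNAC1, and its relative ST6GALNAC2 precedes it. No hg19 annotation was used here, so a peak is assigned to a window and not to a gene, and distances to gene starts are not given. Where a peak or site is said below to lie at a gene, only its place in that gene's window is meant.

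Promoter entries of RefSeq (GRCh38.p14) matched 5 of the 9 genes: MUC1, SPDEF, AGR2, AGR3 and MUC16. The entries of SPDEF, AGR2 and AGR3 are shown because they hold short forkhead-type words, the kind of sequence that FOXA1 recognises, in loci with many Ishikawa peaks. Capitals mark matches on either strand to TGTTTAC, to TATTTAC or to the shorter TGTTT, which is also contained in TGTTTAC. The word TATTTAC was added after the sequences were seen. The coordinates of these sequences are those of GRCh38.p14 and cannot be set against the hg19 peaks.
SPDEF promoter, chr6:34556280-34556579, minus strand: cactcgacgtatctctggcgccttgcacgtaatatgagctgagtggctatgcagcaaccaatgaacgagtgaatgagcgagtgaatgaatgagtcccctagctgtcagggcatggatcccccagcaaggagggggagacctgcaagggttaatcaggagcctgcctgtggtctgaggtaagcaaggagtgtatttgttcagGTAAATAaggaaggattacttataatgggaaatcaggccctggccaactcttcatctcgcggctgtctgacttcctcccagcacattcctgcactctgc
AGR2 promoter, chr7:16804950-16805249, minus strand: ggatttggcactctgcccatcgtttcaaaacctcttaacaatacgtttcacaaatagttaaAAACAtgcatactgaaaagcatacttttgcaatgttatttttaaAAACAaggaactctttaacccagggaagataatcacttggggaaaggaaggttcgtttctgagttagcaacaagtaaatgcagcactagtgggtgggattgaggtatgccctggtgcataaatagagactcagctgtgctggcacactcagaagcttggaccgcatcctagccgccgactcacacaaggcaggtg
AGR3 promoter, chr7:16881934-16882233, minus strand: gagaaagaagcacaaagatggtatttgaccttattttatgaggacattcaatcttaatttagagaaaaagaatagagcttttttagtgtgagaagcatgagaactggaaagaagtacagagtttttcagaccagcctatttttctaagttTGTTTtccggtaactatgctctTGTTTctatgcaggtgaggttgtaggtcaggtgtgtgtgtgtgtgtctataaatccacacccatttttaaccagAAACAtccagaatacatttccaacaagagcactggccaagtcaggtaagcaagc

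SPDEF had 1 match to TATTTAC, AGR2 had 2 matches to TGTTT and AGR3 had 3. Of all 35116 RefSeq promoter entries, 3.42% held TGTTTAC, 2.67% held TATTTAC and 44.4% held TGTTT, so the shortest word is common. Because TATTTAC was added after the sequences were seen, the 2.67% does not tell how unusual the SPDEF match is. None of the 7 entries of the 5 genes held TGTTTAC, and those of MUC1 and MUC16 held none of these words, which says only that the letters are not in these 300 bases.

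All 6 windows held Ishikawa peaks, from 4 at MUC1 to 17 at AGR2 and AGR3, whereas 4 windows held Hec1A peaks. The Hec1A list is the shorter, with 13252 peaks against 54855, and at its density windows of 0.12 to 0.35 Mb hold few peaks. The windows had 37.3 Ishikawa peaks per Mb, against 19.9 per Mb over the same 6 chromosomes and 18.7 per Mb over chromosomes 1 to 22 and X. Hec1A had 7.04 peaks per Mb in the windows, against 5.37 per Mb over the same chromosomes and 4.49 per Mb over chromosomes 1 to 22 and X. Ishikawa density was highest at AGR2 and AGR3, with 48.6 peaks per Mb, and 40 per Mb at both the trefoil and the ST6GALNAC1 windows. MUC16, with 20 per Mb, was the only window at the level of its own chromosome, which had 21.6 per Mb. Hec1A density was uneven, with 25 per Mb at MUC1 (3 peaks) and 20 per Mb at ST6GALNAC1 (4 peaks). Their chromosomes had 4.73 and 8.82 Hec1A peaks per Mb. The AGR2 and AGR3 window had 5.71 Hec1A peaks per Mb against 4.62 over its chromosome, and the trefoil window 4 against 4.32. SPDEF and MUC16 held no Hec1A peak. The windows were chosen around named genes with results of these data known, so these densities are given without a test. When peaks had to reach 8 times their local region, 21 Ishikawa and 2 Hec1A peaks were left in the windows. The list medians were 6.93 times in Ishikawa and 5.71 times in Hec1A, so most peaks of both lists also fell below 8. AGR2 and AGR3 kept 5 Ishikawa peaks in 0.35 Mb and were no longer densest. The trefoil and SPDEF windows kept 5 each in 0.25 Mb, ST6GALNAC1 4 in 0.2 Mb, and MUC16 and MUC1 1 each.

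**Figure D1:**
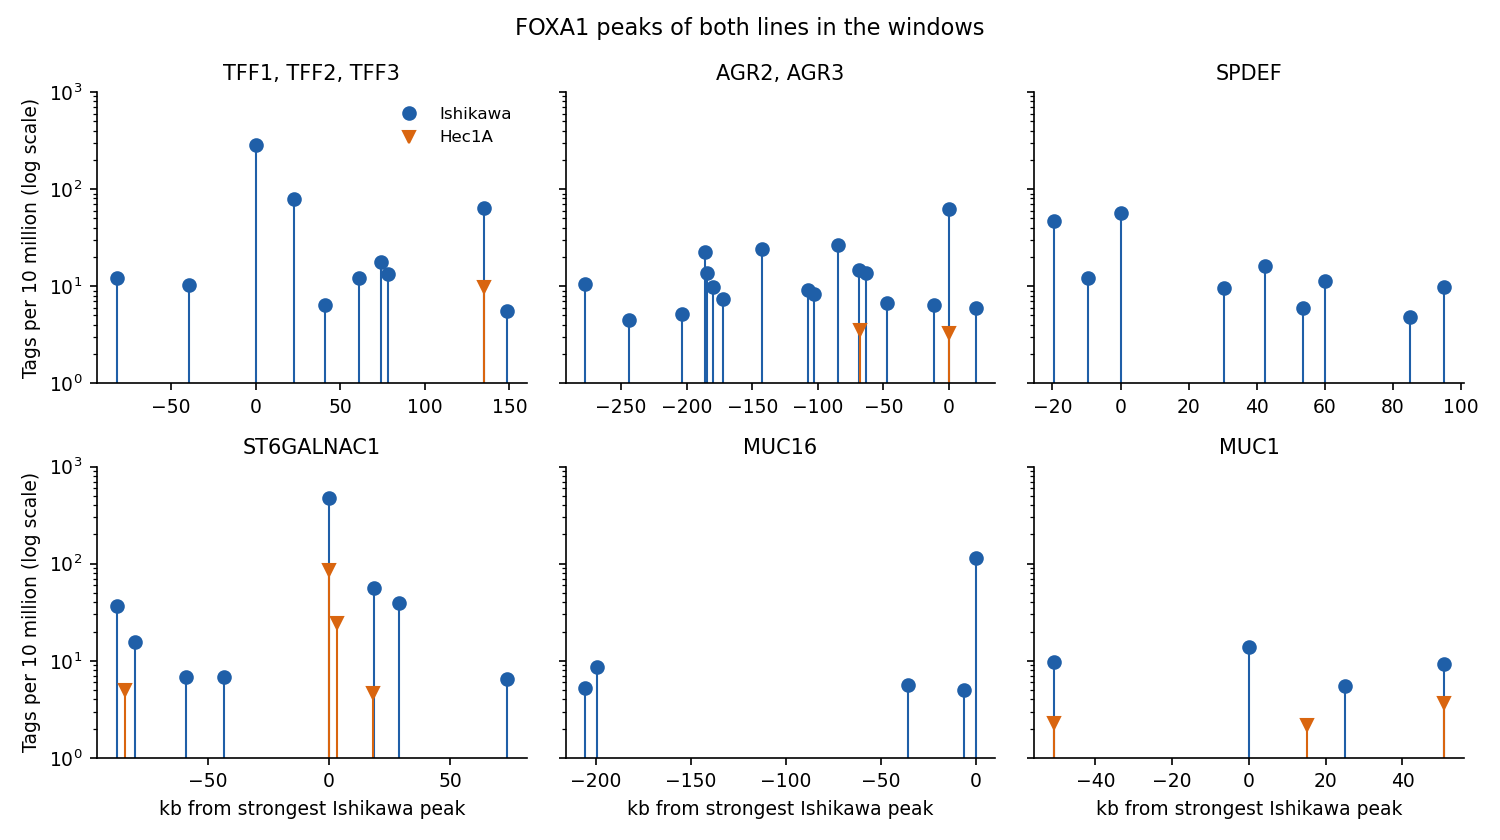
Each panel is 1 window, with the distance in kb from its strongest Ishikawa peak on the x axis and the tags of a peak per 10000000 on a log y axis. Blue circles are Ishikawa peaks and orange triangles Hec1A peaks; SPDEF and MUC16 show Ishikawa peaks alone, and the tallest symbol is the ST6GALNAC1 peak at 475.1.

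The level of a peak is given as the authors' signal, its number of tags per 10000000 tags of the pool, and the authors' fold over the local region compares a peak with the 10000 bp around it. Scores and folds over input are likewise the authors' own values of each peak. Over the whole lists the median signal was 9.69 in Ishikawa and 4.96 in Hec1A. The 53 Ishikawa window peaks ranged from 4.45 to 475.1 with a median of 10.6, and 28 of them (52.8%) exceeded the list median, against 49.8% of all Ishikawa peaks. The typical window peak was thus near the middle of the list. Of the 53 window peaks, 11 (20.8%) lay in the highest-scoring 10% of the list, against 10% of all Ishikawa peaks by definition. Like the densities, this share comes from windows chosen with results of these data known, and it is given without a test. The ST6GALNAC1 window held 4 of these 11, the trefoil window 3, SPDEF 2, and AGR2 with AGR3 and MUC16 1 each. The 10 Hec1A window peaks ranged from 2.17 to 86.1 with a median of 4.16, and 3 of them exceeded the Hec1A list median.

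**Figure D2:**
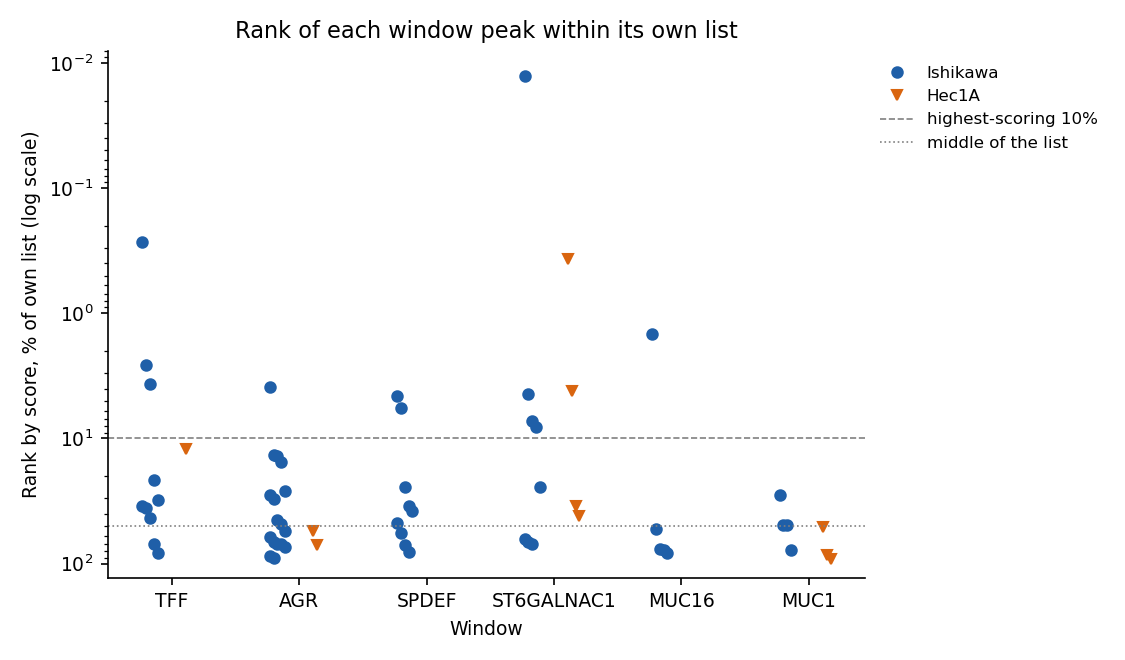
Rank of every window peak by score as a percentage of its own list, on a log axis with the strongest peaks at the top, for Ishikawa (blue circles) and Hec1A (orange triangles); dashed and dotted lines mark the highest-scoring 10% and the middle of the list. The ST6GALNAC1 window holds the highest-ranked peak of both lines, and the MUC1 peaks of both lines all lie outside the highest-scoring 10%.

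In the trefoil factor window, FOXA1 signal in Ishikawa was concentrated in a few strong peaks, and the strongest had no Hec1A counterpart. The window (chromosome 21, 43.65 to 43.90 Mb) held 10 Ishikawa peaks and 1 Hec1A peak. The leading Ishikawa peak, at 43735377 to 43735729, had a signal of 282.7 (95% Poisson interval 277.1 to 288.4, counting error only), 126.3 times its local region and 121.6 times input. It ranked at position 149 of 54855 by score and held 56.0% of the Ishikawa signal in the window. The nearest Hec1A peak lay 134.7 kb away, against a median of 59.7 kb over all Ishikawa peaks. For comparison, 79 of the 149 Ishikawa peaks with at least this score (53.0%) had an overlapping Hec1A peak, so lacking one was common at this rank.

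The next Ishikawa peak of the trefoil window, at 43758140 to 43758492, had a signal of 79.7 (76.8 to 82.8) and also no Hec1A partner. The third, at 43870123 to 43870475, had 64.5 (61.8 to 67.2) and overlapped the single Hec1A peak of the window, at 43870141 to 43870395, which had 9.86 (8.30 to 11.6). The Ishikawa signal at this pair was 6.54 times the Hec1A signal (95% exact interval 5.52 to 7.81, counting error only). The pair lay 134.7 kb from the leading Ishikawa peak. The other 7 Ishikawa peaks ranged from 5.56 to 17.8, where the middle 50% of the list lay between 6.55 and 16.3.

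AGR2 and AGR3 had the largest number of Ishikawa peaks, in the longest window (0.35 Mb). The strongest peak held a smaller share of the window's Ishikawa signal than in the other windows. Of the 17 Ishikawa peaks, 8 (47.1%) exceeded the list median, against 49.8% of all Ishikawa peaks. The window (chromosome 7, 16.70 to 17.05 Mb) held 17 Ishikawa peaks, with a median signal of 9.69 that equals the list median. The strongest, at 17029510 to 17029862, had 62.4 (59.8 to 65.1) and held 24.8% of the window's Ishikawa signal. It overlapped a weak Hec1A peak at 17029531 to 17029785 with 3.29 (2.41 to 4.37), which rests on 47 tags and is below the Hec1A list median. The Ishikawa signal there was 19.0 times the Hec1A signal (14.2 to 25.9, counting error only).

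The next Ishikawa peaks of the AGR2 and AGR3 window had signals of 26.3 (24.6 to 28.1), at 16944868 to 16945220, and 24.3 (22.7 to 26.0), at 16886915 to 16887267. The latter had the highest input level of all window peaks, 17 input tags against a median of 5, and its fold over input was 5.57. The second Hec1A peak, at 16961621 to 16961875 with 3.57 (2.65 to 4.69), had its centre 456 bp from that of an Ishikawa peak of signal 14.8, with 152 bp between the intervals. The closest Ishikawa peaks of the window, singled out after their values were seen, had centres 1.20 kb apart, at 16843566 to 16843918 with 22.3 and at 16844768 to 16845120 with 13.6.

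At SPDEF, binding was listed in Ishikawa alone. The window (chromosome 6, 34.40 to 34.65 Mb) held 9 Ishikawa peaks and no Hec1A peak. Hec1A had 4.29 peaks per Mb over chromosome 6, so a window of 0.25 Mb would hold few at that density. The Hec1A peak nearest to any of the 9 was 105.6 kb away, against a median distance of 59.7 kb over all Ishikawa peaks. Its strongest pair of peaks was similar in height, with 57.2 (54.7 to 59.8) at 34523985 to 34524337 and 46.6 (44.4 to 48.9) at 34504408 to 34504760. Their folds over the local region were 35.9 and 32.5, and over input 27.7 and 90.1. The second was measured against 2 input tags and the first against 8, so the higher fold over input went with the lower signal. The third peak, at 34566433 to 34566785, had 16.0 (14.7 to 17.4), and the other 6 ranged from 4.83 to 12.1. The Hec1A list holds only peaks that passed the authors' filters, so a window without a listed peak does not show that Hec1A had no signal there.

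ST6GALNAC1 had the strongest peak of the 6 windows in both lines. The window (chromosome 17, 74.55 to 74.75 Mb) held 8 Ishikawa and 4 Hec1A peaks. In Ishikawa, the peak at 74637629 to 74637981 had a signal of 475.1 (467.8 to 482.4), ranked at position 7 of 54855 by score, and reached 120.4 times its local region and 262.8 times input. In Hec1A, the overlapping peak at 74637755 to 74638009 had 86.1 (81.4 to 91.1) and ranked at position 49 of 13252, with 33.3 times its local region. The peaks shared 227 bp with centres 77 bp apart, and the Ishikawa signal was 5.52 times the Hec1A signal (5.21 to 5.85, counting error only). They held 73.9% of the Ishikawa signal and 71.8% of the Hec1A signal of the window.

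The other strong peaks of the ST6GALNAC1 window did not overlap between the lines. A second Hec1A peak, at 74641077 to 74641331 with 24.2 (21.7 to 26.9), ranked at position 554 and lay 3.40 kb from the leading Ishikawa peak, with no Ishikawa peak nearer. The Ishikawa peak at 74656013 to 74656365 had 56.2 (53.7 to 58.8), and a Hec1A peak of 4.61 at 74655680 to 74655934 ended 78 bp before it. The third Ishikawa peak, at 74666375 to 74666727, had 39.3 (37.2 to 41.5). The remaining Hec1A peak, at 74553686 to 74553940 with 4.96 (3.88 to 6.26), lay 3.42 kb from an Ishikawa peak of 36.3.

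The Hec1A local background, which is signal divided by fold over the local region, was 0.998 to 4.31 tags per 10000000 at these 4 Hec1A peaks, against a list median of 0.810. The highest values, 2.58 and 4.31, belonged to the neighbouring peaks of 86.1 and 24.2, which lie within the same 10000 bp. The recorded Hec1A command and header show no input filter, although the name given to the list mentions inputs, and the part of this background in the Hec1A peaks of the window was not tested.

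MUC16 had 1 strong Ishikawa peak near an end of its window and otherwise weak ones. The window (chromosome 19, 8.90 to 9.15 Mb) held 5 Ishikawa peaks and no Hec1A peak. Over chromosome 19 Hec1A had 9.15 peaks per Mb, and the window is 0.25 Mb long. The peak at 9142756 to 9143108 had a signal of 114.8 (111.2 to 118.4), 65.2 times its local region and 29.7 times input, and held 82.4% of the Ishikawa signal in the window. The nearest Hec1A peak lay 43.6 kb away, against a median of 59.7 kb over all Ishikawa peaks. Of the 799 Ishikawa peaks with at least this score, 48.4% had an overlapping Hec1A peak. Input there was 15 tags, against a list median of 5.

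The other 4 peaks of the MUC16 window had signals of 8.64 (7.69 to 9.68) at 8943342 to 8943694, 5.59 (4.82 to 6.43) at 9107223 to 9107575, 5.29 at 8937123 to 8937475 and 5 at 9136895 to 9137247. All 4 were below the Ishikawa list median. Between the second and the third peak along the chromosome, 163.9 kb held no listed peak of either line.

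MUC1 had low peaks in both lines and the lowest Ishikawa to Hec1A ratios of the overlapping peaks. The Hec1A threshold of 32 tags equals a signal of 2.24. This is not a strict floor of the signal, since 1 Hec1A peak of the MUC1 window had a signal of 2.17 and a score of 33. At Ishikawa signals as low as those of the pairs here, a much higher ratio could hardly have been listed. The window (chromosome 1, 155.10 to 155.22 Mb) held 4 Ishikawa and 3 Hec1A peaks, and none lay in the highest-scoring 10% of its list. In Ishikawa the strongest, at 155163616 to 155163968, had 13.8 (12.6 to 15.1) and no partner, and the one at 155188734 to 155189086 had 5.47. Both other Ishikawa peaks had a Hec1A partner. At 155112868 to 155113220 the Ishikawa signal was 9.63 (8.62 to 10.7), and the Hec1A peak at 155112887 to 155113141 had 2.31 (1.59 to 3.24), a ratio of 4.17 (2.91 to 6.17).

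At the opposite end of the MUC1 window, the Ishikawa peak at 155214403 to 155214755 had 9.19 (8.21 to 10.3) and the Hec1A peak at 155214527 to 155214781 had 3.70 (2.78 to 4.85). Their ratio of 2.48 (1.85 to 3.39) was the lowest of the overlapping peaks in the windows. The third Hec1A peak, at 155178880 to 155179134 with 2.17 (1.47 to 3.08), had its nearest Ishikawa peak 9.90 kb away. These Hec1A peaks rest on 31 to 53 tags each.

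Ishikawa and Hec1A peaks overlapped by at least 1 bp at 5 sites in the windows: 1 each at the trefoil, AGR2 and AGR3, and ST6GALNAC1 windows, and 2 at MUC1. That was 9.43% of the 53 Ishikawa peaks (95% exact binomial interval 3.13% to 20.7%), against 12.8% of all Ishikawa peaks. It was 50% of the 10 Hec1A peaks (18.7% to 81.3%), against 52.9% of all Hec1A peaks. Both shares were near those of the whole lists, which lie inside these intervals. Intervals of shares treat peaks as independent and cover counting error only. With peak centres allowed to lie up to 1 kb apart, 7 sites were paired, since the neighbouring peaks at AGR2 and AGR3 and at ST6GALNAC1 then counted. With window bounds moved in by 25 kb, 2 of 43 Ishikawa peaks (4.65%) and 2 of 6 Hec1A peaks (33.3%) had a partner. With the Ishikawa list reduced to its 13252 highest-scoring peaks, these shares were 3 of 15 (20%) and 3 of 10 (30%), against 29.9% of all peaks in the reduced Ishikawa list and 29.9% of all Hec1A peaks.

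Of the 11 Ishikawa window peaks in the highest-scoring 10%, 3 overlapped a Hec1A peak, against 38.6% of all Ishikawa peaks in that range. The 3 were the peaks of 475.1 in the ST6GALNAC1 window, 64.5 in the trefoil window and 62.4 in the AGR2 and AGR3 window. The 8 without a partner included the peaks of 282.7 and 79.7 in the trefoil window, 114.8 at MUC16, and 57.2 and 46.6 at SPDEF. Of the 10 Hec1A peaks, the 2 in the highest-scoring 10% both lay at ST6GALNAC1, and 1 of them overlapped an Ishikawa peak, against 77.5% of all Hec1A peaks in that range.

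**Figure D3:**
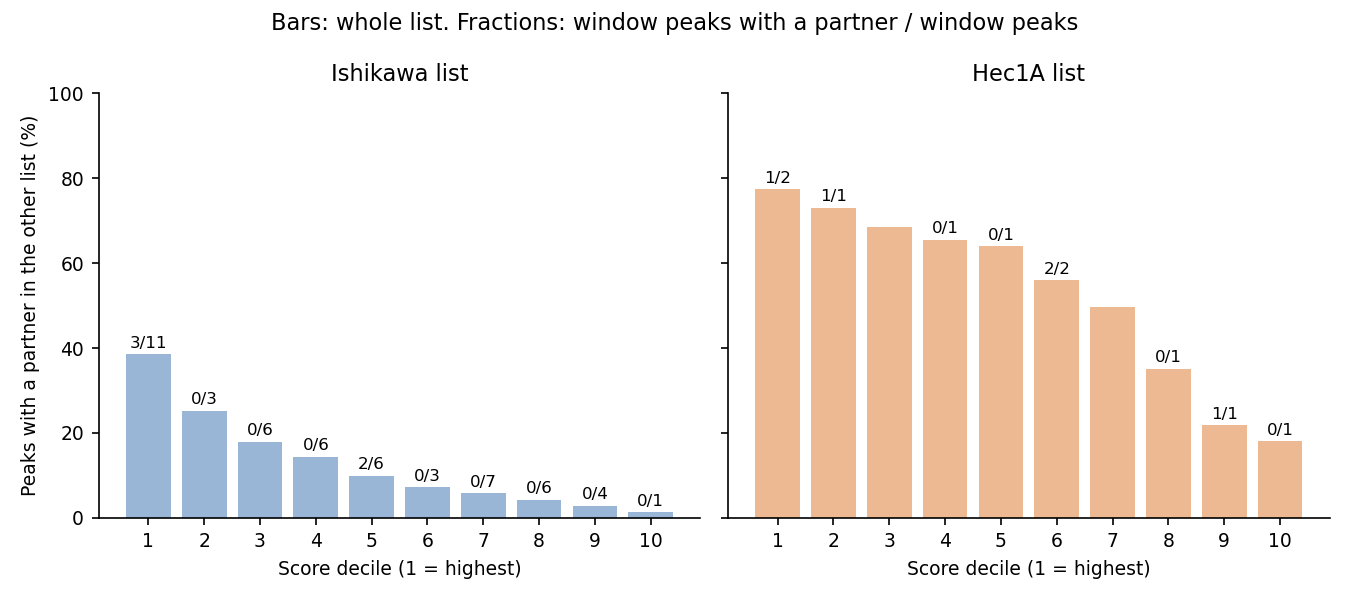
Bars give the percentage of all peaks of a list that overlapped a peak of the other list, by decile of score (1 is the highest), for Ishikawa at left and Hec1A at right. The fractions above the bars are window peaks with a partner over window peaks of that decile, such as 3/11 in the first Ishikawa decile.

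At the 5 overlapping sites the Ishikawa signal exceeded the Hec1A signal, by 2.48 to 19.0 times. Over all 7012 overlapping sites the median ratio was 3.53, with the middle 50% between 2.10 and 5.83. The MUC1 sites (2.48 and 4.17) and ST6GALNAC1 (5.52) lay within that range. The trefoil site (6.54) was above it, with 20.3% of all pairs higher, and the AGR2 and AGR3 site (19.0) was above it with 2.35% of all pairs higher. The median ratio of all pairs is itself above 1, peak widths were 353 bp in Ishikawa and 254 bp in Hec1A, and the shares of tags in peaks were 9.66% and 1.12%, so a ratio is read against 3.53 and not against 1. The fold over the local region is scaled within each list. On this measure the Ishikawa value was 10.7 times the Hec1A value at the AGR2 and AGR3 site. The ratio was 3.61 at the ST6GALNAC1 site, 2.82 at the trefoil site, and 1.89 and 1.18 at the MUC1 sites. The median over all pairs was 1.90. By both measures AGR2 and AGR3 stood highest and the MUC1 sites lowest, while ST6GALNAC1 and the trefoil site changed places. The measures are not independent, since both use the tags of the same peaks. At ST6GALNAC1 the Hec1A local region also includes the neighbouring Hec1A peak of 24.2.

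**Figure D4:**
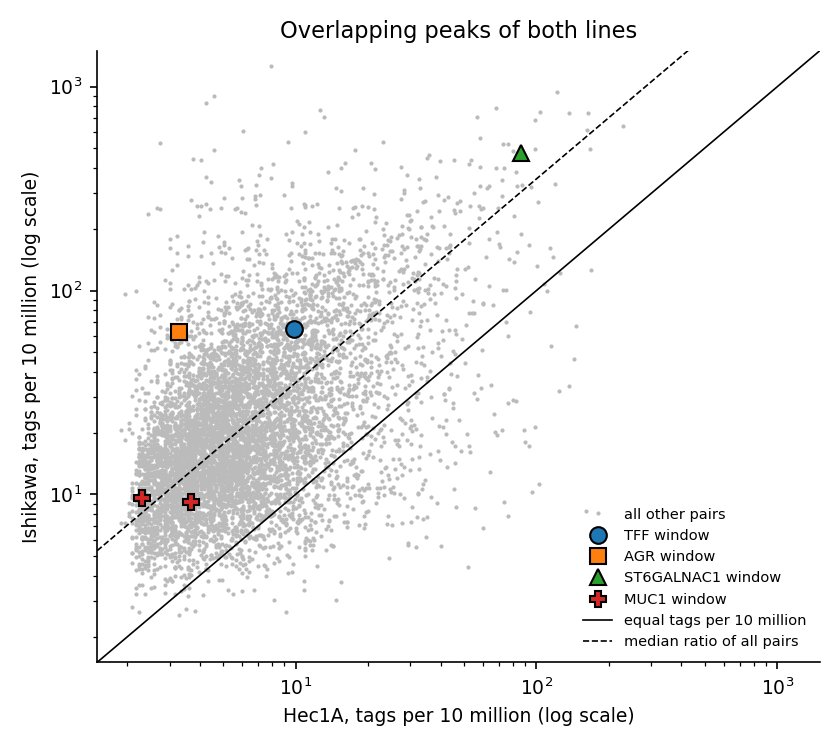
Signal in tags per 10000000 of overlapping peaks in Hec1A (x axis) and Ishikawa (y axis), both on log scales, with the window sites as outlined symbols and all other pairs as grey points; the solid line marks equal signal and the dashed line the median ratio of 3.53. Of the 5 window sites, that of AGR2 and AGR3 stands farthest above the dashed line, and 1 MUC1 site lies below it.

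Measures of peak quality in the windows were compared with the lists. Tags stacked on few positions, marked by a clonal fold above 1, occurred in 4 of 53 Ishikawa window peaks (7.55%), against 25.1% of all Ishikawa peaks, and in 0 of 10 Hec1A window peaks, against 28.8% of all Hec1A peaks. Of these 4 peaks 3 lay at AGR2 and AGR3 and 1 at SPDEF. The median focus ratio, the fraction of tags that surround the centre as a focused peak would, was 0.791 in Ishikawa and 0.795 in Hec1A, against 0.829 and 0.823 over the lists. Input at the Ishikawa window peaks ranged from 2 to 17 tags with a median of 5, the same as the list median, and the fold over input ranged from 4.10 to 262.8 with a median of 8.82, against 7.80 for the list.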

How the data were processed

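FOXA1 ChIP-seq and input libraries of 2 endometrial cancer lines were analysed from the peak lists that the authors deposited, 1 per line. The submitters' processing notes name Bowtie 1.1.2, SAMtools 1.3.1, HOMER 4.7.2 and hg19. Per the file headers, each pool was searched with findPeaks in factor style, with thresholds of 88 tags (Ishikawa) and 32 tags (Hec1A), a fold of 4 over the surrounding 10000 bp and a clonal limit of 2. A fold of 4 over input was asked in Ishikawa, and the recorded Hec1A command names no input, although the list's name does. Per the labels, 2 library kits were used, and both occur in each pool.

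The deposited signal is tags per 10000000. Deposited folds are ratios, the deposited focus ratio is a fraction, and the deposited score is a whole number of tags that ranks peaks. The deposited p-values were not used in comparisons.

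Partners share at least 1 bp. Tags per peak were recovered from signal and pool size, and exact 95% Poisson, binomial and conditional rate-ratio intervals (scipy 1.17.1, pandas 2.3.3, Python 3.11.15) cover counting error only. Densities use the distance from the first to the last peak of each chromosome. Named peaks are all peaks of a window with at most 5 in a list, otherwise the 3 of highest score, and all overlapping peaks. The overlap step was tested on simulated data. Members and lists were chosen with earlier results of these data known. The planned count around other secretory genes was not run, as no hg19 annotation was used here. Alternatives concerned thresholds, overlap and window bounds.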

Additional observations from a re-analysis of the deposited data

How the results depend on the processing

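Over all results, 67 alternatives were computed, and 45 stayed within 1.5 times of a count, within the exact interval of a share, or within the counting interval of a ratio. When peaks had to reach 8 times their local region, 21 Ishikawa and 2 Hec1A peaks were left in the windows. Both Hec1A peaks (100%) had an Ishikawa partner, a share that rests on 2 peaks. The share of all Hec1A peaks with a partner at this threshold was not computed. With the Ishikawa list reduced to the length of the Hec1A list 15 Ishikawa peaks were left, and 30 were left when peaks had to reach 8 times input. Fewer peaks follow from the thresholds themselves. The list medians were 6.93 (Ishikawa) and 5.71 (Hec1A) times the local region, and 7.80 times input in Ishikawa, so most listed peaks also fell below 8. The reduced Ishikawa list holds 13252 of 54855 peaks. With window bounds moved out by 50 kb there were 17 Hec1A peaks, and with bounds moved in by 25 kb there were 6, with 2 of the 5 overlapping sites left. The sites at MUC1 and at AGR2 and AGR3 lie near a bound and were lost. So were the Ishikawa peaks of 114.8 in the MUC16 window and 36.3 in the ST6GALNAC1 window, which have no partner. The share of Ishikawa window peaks with a partner ranged from 4.65% to 20%, and that of Hec1A window peaks from 30% to 100%. Of these settings, whole-list shares were computed only for the main one and for the reduced Ishikawa list. With bounds moved out by 50 kb, SPDEF still had no Hec1A peak, while MUC16 had 1. The stricter thresholds only remove peaks, so they could not have added a Hec1A peak at either window. By score per depth, the ST6GALNAC1 ratio was 3.99 in place of 5.52. Of the Hec1A window peaks, those at MUC1 and at AGR2 and AGR3 rest on the fewest tags, and the effect of depth on their values was not tested. Leaving out libraries was not run because each list pools them, and the stricter fold over input was not applied to Hec1A.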
